A study of Arabidopsis thaliana with 4 samples.

Results

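The comparison set roots of the jasmonate-receptor mutant coi1-2 against roots of the wild type Col after exposure of both to aluminium (Al). It covers all genes of the RNA sequencing tables: 23381 loci had a read in at least 1 of the 4 libraries of the study, and the 17514 with at least 1 RPKM (reads per kilobase of transcript per 1e6 reads) in at least 1 library were compared. Each side is 1 library, so no test between the libraries with Al is possible, and folds are given with intervals that cover counting error only.

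Both lines of Arabidopsis thaliana were grown as seedlings, and roots of about 500 plants, 6 days old, were pooled per sample. The group Col with Al and the group coi1-2 with Al received 10 µM AlCl3 in a dilute nutrient solution of pH 5. Col without Al and coi1-2 without Al had 0 µM AlCl3 in the same solution. The length of exposure is 6 h in the protocol and the titles but 24 h in the design text, and the titles of the libraries without Al give 0 h. The coi1-2 line carries a point-mutation allele of COI1 and is a single mutant line, so COI1 cannot be told apart from any other difference of that line from Col. The Col libraries held 7.80 M reads (no Al) and 6.93 M reads (Al), the mutant libraries 7.42 M (no Al) and 7.19 M (Al).

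Jasmonate is a lipid-derived hormone of wounding, defence and root growth. Its bioactive conjugate brings the F-box protein COI1 together with JAZ proteins, which are then degraded and release transcription factors such as MYC2. Many JAZ genes and genes of jasmonate breakdown are themselves jasmonate targets, which forms a negative feedback. Aluminium in acid medium stops root growth within hours, and Arabidopsis roots release malate through ALMT1, which binds the metal.

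The tissue and genotype labels were compared with marker genes first. COI1 was read at 33.9 RPKM in Col without Al, 29.8 in coi1-2 without Al, 19.6 in Col with Al and 29.4 in coi1-2 with Al. Because coi1-2 is a point mutant, its message can persist, and the level is no check of the genotype. Root markers were present in both libraries with Al: the suberin gene HORST was at 404 and 410 RPKM in Col and coi1-2, the root hair wall protein gene PRP3 at 353 and 171, and the Casparian strip gene CASP1 at 54.7 and 86.2. Of 9 seed storage genes, 9 had no read in Col with Al and 8 had none in coi1-2 with Al.

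With Al, 1379 loci were called higher in coi1-2 (7.87% of those compared) and 328 were called lower (1.87%). A call needed a difference of at least 2-fold in RPKM + 0.5 and a 95% interval of the 2 read counts (exact, after Clopper and Pearson) that did not include a ratio of 1. The median log2 ratio over all loci was 0.26, above 0 like most of the calls, though 33.9% of all loci had a ratio below 0. With scaling factors of the trimmed mean of M-values (TMM), which bring that median to about 0, the split turned to 526 higher (3.0%) and 822 lower (4.69%).

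The ratio with Al followed transcript length. Among the 2190 loci with the shortest transcripts, 75 to 699 nt, the median log2 ratio of coi1-2 to Col was -0.33, and 41 loci were called higher and 139 lower. Among the 2188 loci with the longest, 2479 to 16347 nt, it was 0.73, with 528 higher and 5 lower. The 6 classes between them had medians in order of length. Without Al the same classes had medians from -0.04 to 0.08. Loci called higher with Al had a median transcript length of 2194 nt, those called lower 759 nt, and those not called 1379 nt. Evenness of reads along long transcripts also differed between the libraries: transcripts over 2500 nt with 100 to 200 reads were covered over a median of 78.1% of their length in Col without Al, 76.8% in coi1-2 without Al, 64.7% in Col with Al and 71.4% in coi1-2 with Al. For transcripts of up to 1000 nt the 4 medians lay between 88.5% and 89.2%. The part of RNA integrity in the ratios was not tested. With the length trend subtracted from each ratio, 338 loci were called higher (1.93%) and 337 lower (1.92%).

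**Figure D1:**
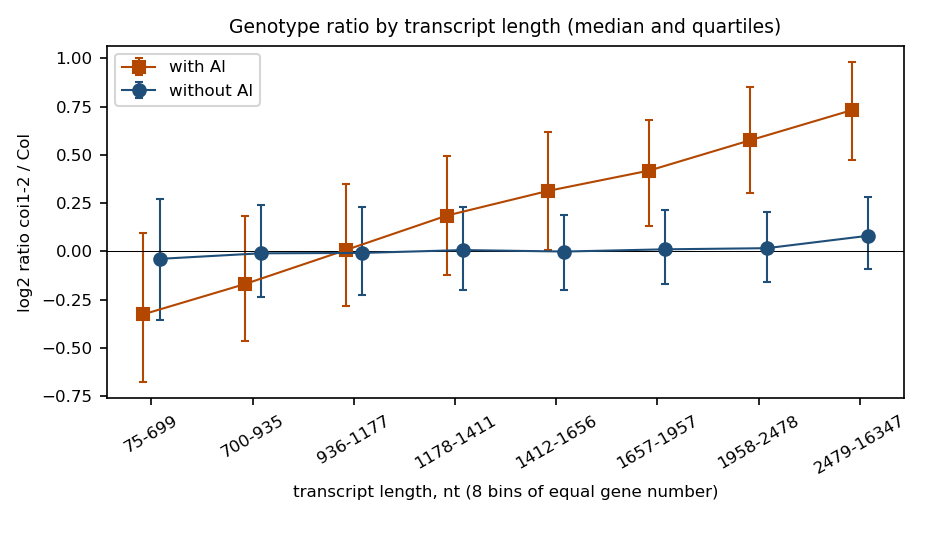
Median log2 ratio of coi1-2 to Col in 8 classes of transcript length of nearly equal gene number, with bars from the lower to the upper quartile over genes, for the libraries with Al (squares) and without Al (circles). With Al the median climbs from -0.33 to 0.73, whereas without Al it stays between -0.04 and 0.08.

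Some genes of jasmonate breakdown and response stood among the lowest of all. Of 9 jasmonate turnover genes past the filter, 3 were called lower with Al and 0 higher, beside 1.87% and 7.87% of all loci. JOX3 and JOX4, oxygenases that hydroxylate and so inactivate jasmonic acid, were read far less in coi1-2 than in Col with Al. JOX4 was read at 2.21 RPKM in Col without Al, 0 in coi1-2 without Al, 31.8 in Col with Al and 2.5 in coi1-2 with Al. Col with Al stood far above the other 3 libraries, and the log2 ratio with Al was -3.43 (interval -4.34 to -3.07). JOX3 was read at 0.462, 0.194, 9.36 and 0.401 RPKM in the same order, a log2 ratio of -3.45 (-6.45 to -3.14) with Al. JOX2, another such oxygenase, was at 43.8, 27.6, 115 and 37.8 RPKM, with the highest value again in Col with Al (-1.60, interval -1.78 to -1.44).

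TAT3, a tyrosine aminotransferase induced by jasmonate and wounding, had the same order: 1.56 RPKM in Col without Al, 0.164 in coi1-2 without Al, 24.3 in Col with Al and 2.12 in coi1-2 with Al. Its log2 ratio with Al was -3.24 (-4.17 to -2.93). ANAC019, a NAC transcription factor of jasmonate and abscisic acid responses, was at 0.200, 0, 13.6 and 3.48 RPKM (-1.83 with Al). Subtracting the length trend left all 5 of these genes called lower, with log2 ratios of -3.65 for JOX4, -3.70 for JOX3, -1.85 for JOX2, -3.60 for TAT3 and -2.01 for ANAC019.

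Of 19 jasmonate signalling genes past the filter, 2 were called lower with Al and 0 higher, beside 1.87% and 7.87% of all loci. With TMM factors 7 were called lower, beside 4.69%, and with the length trend subtracted 5, beside 1.92%. The 2 called lower were the JAZ repressor genes JAZ1 and JAZ3. JAZ1 was read at 6.75 RPKM in Col without Al, 2.89 in coi1-2 without Al, 3.80 in Col with Al and 0.628 in coi1-2 with Al (-1.93, interval -4.14 to -1.33). JAZ3 was at 9.90, 6.12, 10.4 and 4.22 RPKM (-1.20, interval -1.82 to -0.80). Both coi1-2 libraries lay below both Col libraries for these 2 genes. JAZ2 and JAZ6, outside the naming rule because they were not called, had log2 ratios of -0.96 and -1.0 with Al, just short of 2-fold, and were called lower once the length trend was subtracted (-1.15 and -1.17). JAZ11 and JAZ12 were at 0.25 and -0.23. JAZ8 was read at 2.95 RPKM in Col without Al and 0 in coi1-2 without Al, but from only 2 and 0 reads with Al, where no difference was detectable at this depth.

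None of the transcription factors MYC2, MYC3 and MYC4, which JAZ proteins bind, was called with Al. MYC2 was read at 129.8 RPKM in Col without Al, 78.8 in coi1-2 without Al, 22.1 in Col with Al and 23.6 in coi1-2 with Al. The log2 ratio with Al was 0.10 (interval -0.12 to 0.32) as deposited and -0.47 with the length trend subtracted, so its sign depends on that step, and without Al it was -0.72 (-0.82 to -0.62). MYC3 and MYC4, named after their values were seen, had log2 ratios of 0.88 and 0.64 with Al, and 0.47 and 0.07 once the length trend was subtracted.

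Of 15 jasmonate synthesis genes past the filter, 2 were called lower with Al and 2 higher, beside 1.87% and 7.87% of all loci. The plastid lipoxygenase gene LOX3 was called lower, at 1.51 RPKM in Col and 0.188 in coi1-2 with Al (-1.55, interval -4.97 to -1.51). AOC2, an allene oxide cyclase, was called lower at 3.09 and 1.13 RPKM (-1.14). AOC2 rests on few reads and lost its call with a 99% interval. AOS, allene oxide synthase, was at 59.6 RPKM in Col without Al, 22.0 in coi1-2 without Al, 37.7 in Col with Al and 23.5 in coi1-2 with Al. Its log2 ratio of -0.67 with Al was under 2-fold. ACX1 and AIM1, enzymes of the peroxisomal chain-shortening steps that also serve general fatty acid breakdown, were called higher (1.08 and 1.11). Both have transcripts over 2400 nt, and with the length trend subtracted neither was called (0.44 and 0.45).

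**Figure D2:**
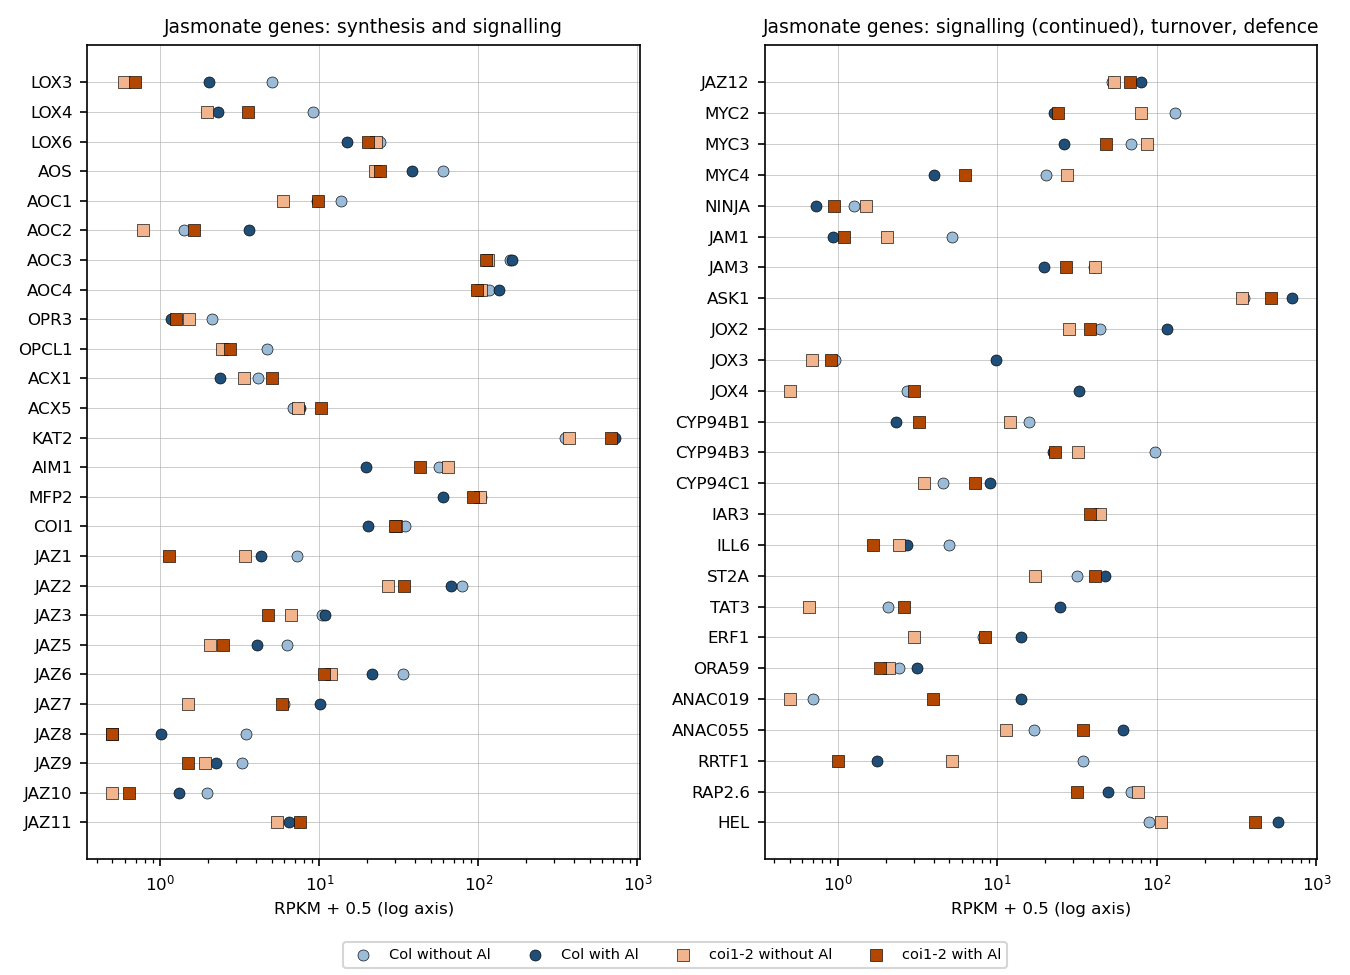
RPKM + 0.5 (log axis) of the 51 jasmonate genes past the filter in each of the 4 libraries, 1 point per library, Col as circles and coi1-2 as squares, dark for libraries with Al. For JOX3, JOX4, TAT3 and ANAC019 Col with Al stands alone on the right, whereas MYC2 has almost the same value in both libraries with Al. RRTF1 is the gene also called ERF109.

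The 4 jasmonate lists (synthesis, signalling, turnover, responsive defence) held 72 entries, of which 51 passed the filter, while 11 were read too weakly and 10 were unread or unmatched. Of the 51, 2 were called higher and 9 lower with Al, beside 7.87% and 1.87% of all loci. The counts were 0 and 18 with TMM factors, beside 3.0% and 4.69% of all loci. With the length trend subtracted they were 0 and 15, beside 1.93% and 1.92%. The median log2 ratio of the 51 was -0.47, and 32 had a ratio below 0, beside 33.9% of all loci. With the length trend subtracted 43 had a ratio below 0, beside 50.3%. The defence list was thin: CORI3, THI2.1, VSP1, VSP2 and the PDF1.2 genes, much used as leaf markers, had no value among the compared loci.

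In 250 bases before the annotated gene start (RefSeq, TAIR10.1), a G-box (CACGTG, the element MYC2 binds, both strands) stood in 9.35% of 310 promoters of loci lower with Al, in 6.93% of 1371 of loci higher with Al and in 7.06% of 17366 promoters of all loci past the filter. Among the 51 jasmonate genes 10 promoters held one (19.6%), and 2 of the 9 called lower did. W-boxes (TTGACC or TTGACT, the element of WRKY factors) stood in 32.6% of promoters of the lower loci, 32.7% of the higher and 29.2% of all. The ABA element (ACGTGTC) was in 3.87%, 3.65% and 4.07%, the drought and cold element (CCGAC) in 14.5%, 11.5% and 12.8%, and the GCC-box (GCCGCC) in 1.61%, 1.60% and 1.97%. These are matches of letters, not sites of binding. The promoters of 3 jasmonate genes called lower with Al are printed because they hold such elements, in capitals. JAZ3 (chr3:6119457-6119706, forward strand) holds 2 G-boxes and 2 drought and cold elements, ANAC019 (chr1:19698483-19698732, reverse strand) a G-box that overlaps an ABA element, and TAT3 (chr2:10585217-10585466, reverse strand) 1 W-box.
JAZ3: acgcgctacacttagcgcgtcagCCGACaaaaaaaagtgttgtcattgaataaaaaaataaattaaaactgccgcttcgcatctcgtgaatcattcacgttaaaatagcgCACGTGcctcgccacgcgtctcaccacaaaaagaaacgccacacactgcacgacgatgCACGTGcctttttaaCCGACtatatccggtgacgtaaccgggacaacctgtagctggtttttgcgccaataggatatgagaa
ANAC019: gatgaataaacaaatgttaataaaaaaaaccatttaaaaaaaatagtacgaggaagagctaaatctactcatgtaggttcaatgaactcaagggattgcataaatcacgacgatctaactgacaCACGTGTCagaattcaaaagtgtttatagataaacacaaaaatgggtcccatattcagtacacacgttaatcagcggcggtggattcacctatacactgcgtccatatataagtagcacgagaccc
TAT3: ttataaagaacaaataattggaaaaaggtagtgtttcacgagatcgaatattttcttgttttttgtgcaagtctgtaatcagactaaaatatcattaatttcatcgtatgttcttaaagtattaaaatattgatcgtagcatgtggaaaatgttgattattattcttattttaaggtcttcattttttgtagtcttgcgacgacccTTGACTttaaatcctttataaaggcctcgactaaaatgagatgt
JOX3, JOX4, JOX2 and AOC2 held none of the 5 elements in this window, of which 243 bases lie in another gene for JOX2, and LOX3 held a W-box.

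The lowest loci beyond the jasmonate lists were led by AT4G29200, a beta-galactosidase-like gene. It was read at 62.2 RPKM in Col without Al, 0.196 in coi1-2 without Al, 104 in Col with Al and 0.911 in coi1-2 with Al, so the mutant was near 0 in both treatments (log2 ratio -6.21 with Al, interval -7.97 to -5.91). AT5G26270, of unknown function, had the same pattern, with 37.2, 2.1, 53.8 and 1.94 RPKM (-4.48). AT3G16660, a pollen Ole e 1 allergen and extensin family gene, had 67 reads in Col with Al and 0 in coi1-2 with Al, at least 23.2-fold lower when 3 reads in that library are taken as the floor.

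MSRB7, a methionine sulfoxide reductase that repairs oxidised protein, was read at 44.6 RPKM in Col without Al, 45.2 in coi1-2 without Al, 82.2 in Col with Al and 8.51 in coi1-2 with Al. The genotypes were level without Al and 3.2 log2 units apart with it (interval -3.72 to -2.85). AT5G19110, an aspartyl protease family gene, was at 29.6, 13.9, 52.0 and 3.94 RPKM (-3.56). AT4G37710, a VQ-motif gene, was at 1.04, 0, 20.2 and 1.13 RPKM (-3.67), FAMT, a farnesoic acid methyltransferase, at 1.87, 0, 8.07 and 0.451 (-3.17), and AT2G26380, a leucine-rich repeat gene, at 1.33, 0.0934, 22.5 and 2.22 (-3.08). Without Al, FAMT (-2.24), AT2G26380 (-1.63) and AT5G19110 (-1.06) were called lower as well. AT4G37710, FAMT and AT2G26380 share with JOX4 and TAT3 a single high library, Col with Al. All 12 lowest loci stayed called lower with TMM factors and with the length trend subtracted.

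The highest ratio belonged to AT3G28510, a P-loop ATPase family gene, at 0.209 RPKM in Col without Al, 3.22 in coi1-2 without Al, 2.90 in Col with Al and 19.2 in coi1-2 with Al (2.53, interval 2.22 to 3.26). GolS4, a galactinol synthase of the raffinose pathway, was at 1.62, 4.72, 5.91 and 35.5 RPKM (2.49, interval 2.17 to 3.02). For both, coi1-2 was above Col within each treatment. AT2G01422 was almost unread in Col without Al, at 0.645 RPKM, and stood at 52.7 in coi1-2 without Al, 12.5 in Col with Al and 51.8 in coi1-2 with Al (2.0). AT4G14060, of the polyketide cyclase family, was at 0.762, 6.41, 2.36 and 11.4 RPKM (2.05) and AT1G49750, a leucine-rich repeat gene, at 0.365, 2.07, 1.64 and 9.03 (2.15).

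WRKY53, a transcription factor of defence and senescence, was at 34.2 RPKM in Col without Al, 31.6 in coi1-2 without Al, 2.57 in Col with Al and 11.1 in coi1-2 with Al. Here the low library was Col with Al, and the log2 ratio with Al was 1.92 (1.5 to 2.77). The peroxidase gene AT1G44970 had that order too, at 41.1, 49.9, 1.68 and 8.00 RPKM (1.96), as did AT1G71740 and AT1G73120, both of unknown function (1.94 and 1.86). AT4G10500, a 2-oxoglutarate-dependent oxygenase family gene, AT5G53320, a leucine-rich repeat kinase, and AT3G06210, an ARM repeat gene, complete the 12 highest, at 2.01, 1.92 and 1.85. All 12 stayed called higher with TMM factors and with the length trend subtracted.

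**Figure D3:**
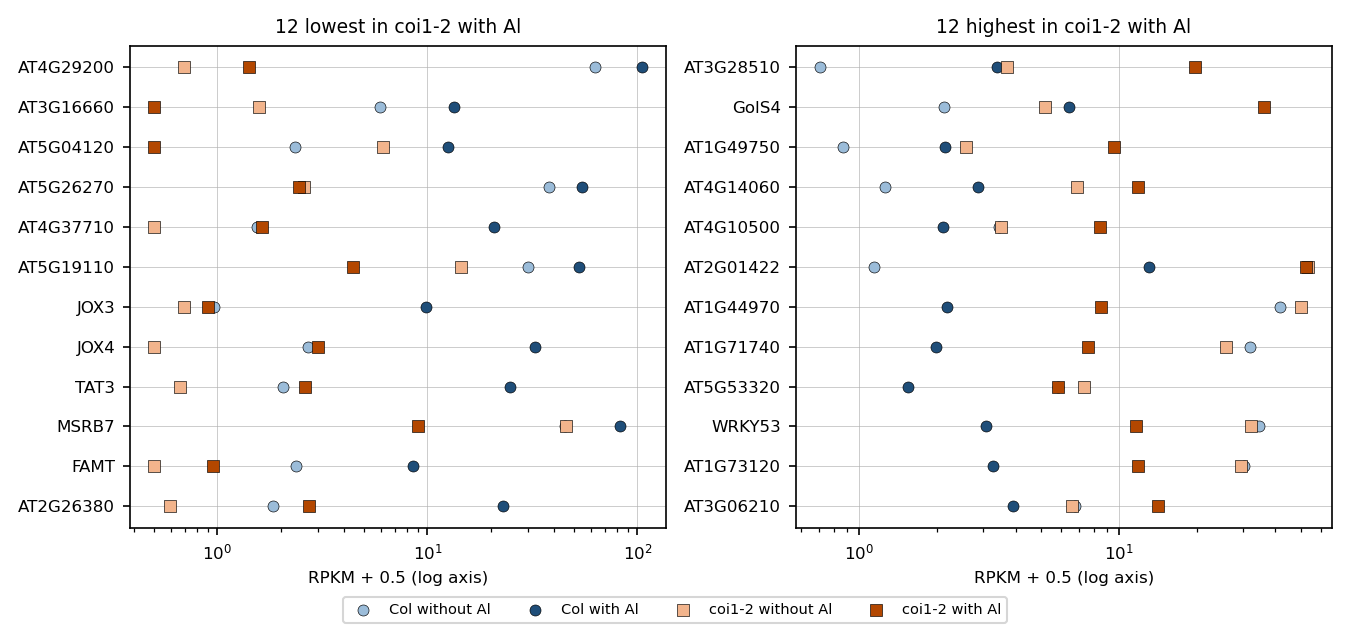
RPKM + 0.5 (log axis) in each of the 4 libraries, 1 point per library, for the 12 loci with the lowest and the 12 with the highest ratio of coi1-2 to Col with Al among called loci of at least 5 RPKM in either. On the left, AT4G29200 and AT5G26270 have both coi1-2 libraries low, while MSRB7 differs with Al alone. On the right, WRKY53 and AT1G44970 are lowest in Col with Al.

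The Al resistance list, 17 genes past the filter, had 3 called higher and 1 lower, beside 7.87% and 1.87% of all loci, and 1 of each both with TMM factors and with the length trend subtracted. ALMT1, the malate channel, was read at 0.0819 RPKM in Col without Al, 0.258 in coi1-2 without Al, 8.57 in Col with Al and 20.1 in coi1-2 with Al (93 and 227 reads with Al). Its log2 ratio of 1.19 with Al (0.88 to 1.60) was 0.90 with TMM factors and 0.86 with the length trend subtracted, short of 2-fold in both. ALS1, a vacuolar ABC transporter, was at 10.2 and 24.0 RPKM with Al (1.19, and 0.62 with the length trend subtracted). WRKY46, a regulator that represses ALMT1, was at 7.24, 3.31, 4.02 and 11 RPKM (1.35) and stayed called. BCB, a blue copper-binding protein, was lower, at 16.5, 2.02, 157 and 73.4 RPKM (-1.09), in both treatments. ALS3, an ABC-transporter-like gene, was at 38.6 and 28.5 RPKM with Al (-0.43). The list median lay at -0.03 relative to all loci.

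The list of salicylate-linked genes had the highest median except with a pseudocount of 0.1, where the heat shock list stood above it (0.68 against 0.62 relative to all loci). Of 11 genes of camalexin and salicylate-linked defence past the filter, 5 were called higher with Al and 0 lower, beside 7.87% and 1.87% of all loci, and their median lay 0.63 above that of all loci. Without Al none was called. WRKY70, a regulator between the salicylate and jasmonate pathways, was at 5.77 RPKM in Col without Al, 9.70 in coi1-2 without Al, 39.6 in Col with Al and 102 in coi1-2 with Al (1.35, interval 1.17 to 1.56). SID2, the isochorismate synthase of salicylate, was at 0.491 and 2.36 RPKM with Al (1.53, from 7 and 35 reads), PAD4, a defence regulator, at 42.9 and 98.6 (1.19), and PBS3, a later enzyme of salicylate synthesis, at 10.5 and 23.3 (1.11). NIMIN1, which binds the salicylate receptor NPR1, rests on 3 and 13 reads (1.56). With the length trend subtracted WRKY70, SID2 and NIMIN1 stayed called and PAD4 (0.72) and PBS3 (0.62) did not. With TMM factors the calls that stayed were WRKY70 and SID2. These 3 and 2 calls stand beside 1.93% and 3.0% of all loci called higher under the same settings.

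The counts of the next lists are to be read beside the 7.87% of all loci called higher. Among the galactinol and cold genes, 2 of 9 were called higher, GolS4 and GolS2. GolS2 was at 9.37 RPKM in Col without Al, 3.57 in coi1-2 without Al, 24.8 in Col with Al and 70.9 in coi1-2 with Al (1.5), so that coi1-2 was below Col without Al and above it with Al. CBF1, CBF2 and CBF3, cold regulators, were not called (-0.12, -0.62 and -0.66). Of 16 phosphate starvation genes 3 were called higher, PHO1, LPR1 and SQD1, and of 22 tubulin and microtubule genes also 3, EB1A, MAP65-2 and SPR2. Of those 6 only EB1A, a protein of growing microtubule ends, stayed called with the length trend subtracted. EB1A rests on 3 reads in Col and 28 in coi1-2 with Al, at 0.326 and 2.93 RPKM (2.05, interval 1.47 to 5.53). The auxin list (27 genes) had 1 call, ARF19, an auxin response factor, the ethylene list (18) 1, EIN2, the central signalling protein of that hormone, and the iron deficiency list (16) 1, FRO2, the ferric reductase of the root surface. All 3 were higher, and none stayed called with the length trend subtracted. The tryptophan synthesis, nitrate and sulfate, and clock lists had no call.

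**Figure D4:**
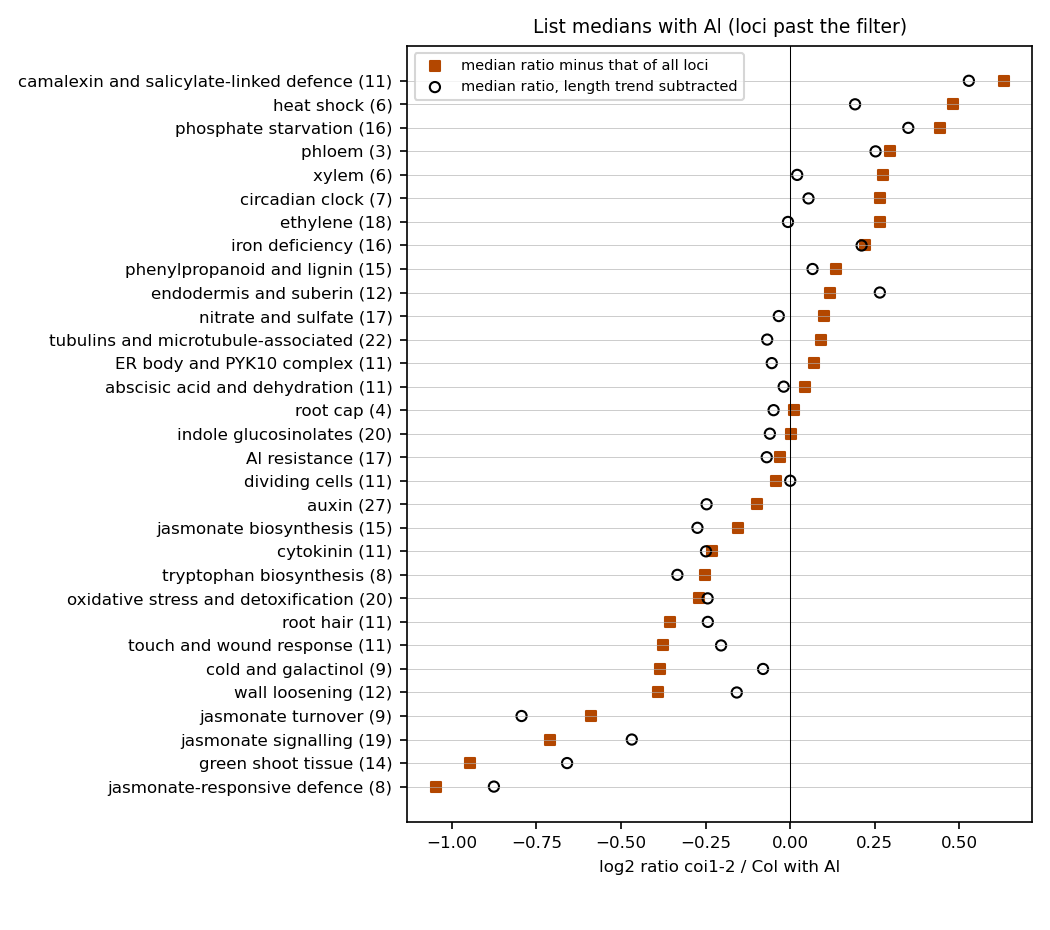
Median log2 ratio of coi1-2 to Col with Al for each gene list with at least 3 genes past the filter (number in brackets), as the difference from the median of all loci (squares) and with the length trend subtracted (open circles). The lists of jasmonate defence, signalling and turnover and of green shoot tissue lie lowest, and the salicylate-linked list lies highest.

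Few markers of cell types were called with the RPKM as deposited. Of 14 green shoot genes past the filter 13 had a ratio below 0 with Al, beside 33.9% of all loci. Of the 14, 0 were called higher and 1, RBCS1A, lower (22.0 against 10.4 RPKM, -1.04), beside 7.87% and 1.87% of all loci. The list median lay 0.95 below that of all loci. With TMM factors 0 were called higher and 6 lower, beside 3.0% and 4.69% of all loci. With the length trend subtracted 0 were called higher and 1 lower, beside 1.93% and 1.92%, and the list median was -0.66. Their summed level was 139 RPKM in Col without Al, 188 in coi1-2 without Al, 553 in Col with Al and 384 in coi1-2 with Al. The RBCS genes are near-identical copies whose reads may be split. Of 11 root hair genes 2 were called lower, beside 1.87% of all loci: EXPA18, an expansin (37.0 against 15.5 RPKM, -1.23), and PRP3 (-1.04). The summed level of the 11 was 546 RPKM in Col and 319 in coi1-2 with Al, of which PRP3 alone held 353 and 171. A ratio below 0 was found in 6 of the 11, beside 33.9% of all loci. With TMM factors 3 were called lower, beside 4.69% of all loci. With the length trend subtracted 3 were called lower, beside 1.92%. Of 12 endodermis genes 2 were called higher, beside 7.87% of all loci, among them PER64, a peroxidase of the Casparian strip (9.28 against 27.6 RPKM, 1.52). The part of these cell types in the gene differences was not tested, and fewer cells of a type and less RNA per cell cannot be told apart in whole roots. The xylem, phloem and dividing-cell lists had no call.

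Without Al, in a pair of libraries separate from those with Al, 251 loci were called higher in coi1-2 (1.43%) and 235 lower (1.34%), with a median log2 ratio of 0.01. The loci called lower in both treatments numbered 41, or 12.5% of those lower with Al and 17.4% of those lower without. The loci called higher in both numbered 32, or 2.32% of those higher with Al and 12.7% of those higher without. With the length trend subtracted they were 43 lower and 26 higher. Of the jasmonate genes, 18 of 51 were called lower without Al and 0 higher, and LOX3, JOX4, TAT3 and JAZ1 were lower in both treatments. JAZ7, at -2.0 without Al and -0.79 with it, and LOX4, at -2.23 and 0.63, were named after their values were seen. Whether the genotype difference depends on Al could not be tested with 1 library per group.

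**Figure D5:**
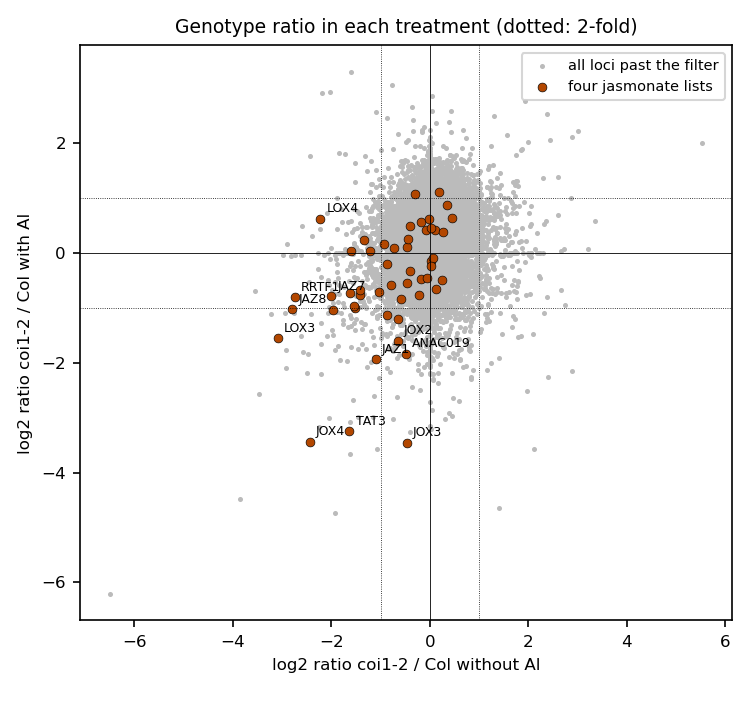
Log2 ratio of coi1-2 to Col without Al (horizontal) and with Al (vertical) for the 17514 loci past the filter, with the jasmonate genes as large points and dotted lines at 2-fold. JOX4, TAT3 and LOX3 lie low on both axes, JOX3 and ANAC019 mainly on the vertical one, and LOX4 mainly on the horizontal one.

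The only test possible was of genotype over the 4 libraries, as no group had a replicate. It used edgeR's quasi-likelihood test on read counts with treatment as a term, 2 libraries per arm and 1 residual degree of freedom, and left a genotype difference that varies with treatment in the error. Of 16477 genes 26 were higher in coi1-2 (0.158%) and 71 lower (0.431%) at an adjusted p of 0.05. Of the 71, 50 were also called lower with Al, and of the 26, 14 were called higher, beside 1.87% and 7.87% of all loci. The libraries with Al enter this test too, so the overlap is no independent support. Most calls with Al did not pass: 50 of 273 lower calls tested and 14 of 1334 higher calls tested did. Among 47 jasmonate genes tested, 10 were lower. They included JAZ2 (log2 fold change -1.42, SE 0.29, edgeR adjusted p = 0.000867), JAZ6 (-1.45, SE 0.30, edgeR adjusted p = 0.00171), JOX2 (-1.30, SE 0.29, edgeR adjusted p = 0.00657) and TAT3 (-3.71, SE 0.45, edgeR adjusted p = 8.13e-11). GolS4 was higher by 2.0 (SE 0.35, edgeR adjusted p = 5.33e-05) and AT3G28510 by 2.78 (SE 0.40, edgeR adjusted p = 8.92e-08). MSRB7 passed (-1.65, edgeR adjusted p = 0.00308) though its libraries without Al were level. ALMT1 (0.98, edgeR adjusted p = 0.513), WRKY70 (0.93, edgeR adjusted p = 0.194) and ALS3 (-0.53, edgeR adjusted p = 0.706) did not pass. With the length trend as an offset, in which the fit borrowed less from other genes (11.9 against 192.8 prior degrees of freedom), JAZ2, JAZ6, TAT3, GolS4 and AT3G28510 still passed, with edgeR adjusted p from 0.000533 to 0.0159. JOX2 (0.0610) and MSRB7 (0.538) did not.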

How the data were processed

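Per the labels' protocols, total root RNA was enriched for poly(A) RNA and sequenced on an Illumina instrument, with no step that keeps strand, so reads of genes that overlap on opposite strands cannot be separated. The deposited counts are unique reads per transcript, per the file headers. The deposited RPKM values divide those counts by transcript length and by the total in the file headers, and recomputing them gave the same values. Coverage is deposited as a percent of transcript length. Aligner and genome build: not given in the sources used here. The RefSeq gene table (TAIR10.1) held 23189 of the 23381 loci.

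Reads and RPKM were summed over isoforms. Reads shared by isoforms are missing: the 3089 loci with several isoforms (JAZ1, JAZ3 and SID2 among them) had median RPKM 0.931, those with a single isoform 4.85. Near-identical paralogs are affected alike. A transcript not listed was taken as 0 reads. Ratios are of RPKM + 0.5, which understates changes of weakly read genes; the interval has no pseudocount. PCR copies are not independent, so intervals and floors (3 reads) cover counting error only. Nothing in the labels names separate cultures, so p-values reflect no more than the residual spread of a model with genotype and treatment. The length trend is a lowess curve of the ratio on log10 length. Tools were edgeR 4.0.16 (TMM, filterByExpr, common dispersion 0.0385, Benjamini-Hochberg adjustment), DESeq2 1.42.0, scipy 1.17.1 and statsmodels 0.14.6; both steps were tested on simulated data.

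Genes were named by rule: the 12 highest and 12 lowest called loci of at least 5 RPKM with Al, up to 4 called members per list, and COI1, MYC2, ALMT1 and ALS3. Members and lists were chosen with earlier results of these data known. Genes outside the rule (JAZ2, JAZ6, JAZ7, JAZ8, JAZ11, JAZ12, AOS, PBS3, the CBF genes and the markers HORST and CASP1) were named after their values were seen. Some items are not reported here. Alternatives were other pseudocounts, filters, factors, a 99% interval, the main isoform, and removal of the length trend.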

Additional observations from a re-analysis of the deposited data

Results flagged for a closer look

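In all, 20 loci were called in opposite directions in the 2 treatments. Of 1379 loci higher in coi1-2 with Al, 9 were called lower without Al, beside 1.34% of all loci. Of 328 loci lower with Al, 11 were called higher without Al, beside 1.43% of all loci. The difference between treatments was not tested, since each group is 1 library. Genes flagged because coi1-2 moved one way with Al and the other way without were as follows. GolS2 had a log2 ratio of 1.5 with Al and -1.28 without. WRKY46 had 1.35 and -1.02. RBOHD, an NADPH oxidase that makes superoxide, had 1.11 and -1.20, and with the length trend subtracted 0.38 with Al. AT2G17660, a RIN4 family gene, had 1.68 and -1.18. AT5G04120, a phosphoglycerate mutase family gene, had -4.64 and 1.40, from 81 reads in Col and 0 in coi1-2 with Al, at least 28-fold lower when 3 reads are taken as the floor. ARR6, a cytokinin response regulator, had -1.19 and 1.16.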

How the results depend on the processing

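The counts with Al depended most on scaling and on length. Loci higher with Al, 1379 as reported, numbered 776 with a pseudocount of 1, 526 with TMM factors, 471 with median-of-ratios factors and 338 with the length trend subtracted. Loci lower with Al, 328 as reported, numbered 822 and 886 with the 2 kinds of factor and 337 with the length trend subtracted. The median log2 ratio moved from 0.26 to 0.000118, -0.017 and -0.00267 under those 3 settings, and was -0.33 in the shortest and 0.73 in the longest eighth of transcript lengths, a split chosen after seeing the data. Loci higher in both treatments, 32 as reported, numbered 57 with a pseudocount of 0.1, 19 with one of 1 and 13 with either kind of factor; loci lower in both, 41, numbered 66 with either. Loci higher without Al, 251, numbered 162 with a filter of 5 RPKM. For genotype over both treatments, edgeR with median-of-ratios factors gave 11 higher, the length offset 15 higher and 31 lower, and DESeq2 3 higher and 15 lower; the cause of the DESeq2 counts was not tested. Of 69 named loci called with Al, 20 lost the call with TMM factors, 21 with median-of-ratios factors, 20 with the length trend subtracted, 9 with a pseudocount of 1 and 3 with a 99% interval, and 0 changed sign under any of the 9 settings tried. With 1 library per group there were no replicates to pair, and the edgeR test compared the genotypes with treatment as a term.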

Other observations

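Gene families and neighbours described here were picked after their values were seen. Their counts are to be read beside all loci, of which 7.87% were called higher and 1.87% lower with Al, 3.0% and 4.69% with TMM factors, 1.93% and 1.92% with the length trend subtracted, and 1.43% and 1.34% without Al. Of 56 WRKY transcription factor genes past the filter, 10 were called higher and 1 lower in coi1-2 with Al, 5 and 1 with TMM factors, 7 and 1 with the length trend subtracted, and 1 and 5 without Al. Besides WRKY53, WRKY70 and WRKY46 the higher ones included WRKY54, at 14.6 RPKM in Col without Al, 22.4 in coi1-2 without Al, 7.56 in Col with Al and 22.9 in coi1-2 with Al (log2 ratio 1.54 with Al), and WRKY59 (12.8 against 42.9 RPKM with Al, 1.71). Of 883 genes annotated as kinases, 154 were higher and 1 lower with Al, but 64 and 4 with TMM factors and 16 and 6 with the length trend subtracted; their transcripts have a median length of 2072 nt.

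Of 52 genes annotated as lipid-transfer proteins, 0 were higher and 11 lower with Al (0 and 16 with TMM factors, 0 and 10 with the length trend subtracted), against 6 higher and 4 lower without Al. Several are neighbours on chromosome 4. AT4G12520 was read at 278 RPKM in Col without Al, 364 in coi1-2 without Al, 72.5 in Col with Al and 9.16 in coi1-2 with Al (-2.92), and its near-identical neighbour AT4G12510 at 69.1, 94.9, 18.8 and 1.96 (-2.97). AT4G12545 was at -1.56. Nearby, AT4G12490 was low in coi1-2 in both treatments (-2.92 without and -2.08 with Al). AT4G12500, between AT4G12490 and AT4G12510, was called in neither treatment (-0.62 without and -0.79 with Al). EARLI1 (-0.87) and AZI1 (-0.34), on the other side of AT4G12490, were not called with Al but were called lower without Al. With TMM factors AT4G12500 and EARLI1 were called lower with Al. AIR1 was called lower with Al (-1.10), but not with the length trend subtracted.

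On chromosome 5, AT5G47980, an acyltransferase, and CYP705A5, a cytochrome P450, belong to the gene cluster of the root triterpene thalianol. CYP705A5 was at 12.5 RPKM in Col without Al, 17.4 in coi1-2 without Al, 4.05 in Col with Al and 0.234 in coi1-2 with Al (-2.63), and AT5G47980 at 10.6, 12.4, 4.36 and 0.700 (-2.02). The nearby acyltransferase gene AT5G47950 was at -1.24. Without Al none of the 3 was called, with log2 ratios of 0.21 to 0.47, and for CYP705A5 coi1-2 was higher (0.47, interval 0.19 to 0.78). With the length trend subtracted all 3 stayed called lower with Al. RABA4C, a RAB GTPase gene between AT5G47950 and AT5G47980, was not called with Al (0.57). The CYP705A5 ratio rests on 50 reads in Col and 3 in coi1-2 with Al.

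On the plastid genome, ribosomal protein genes were called higher in coi1-2 with Al and without Al: RPL16 (1.01 with and 1.5 without Al), RPL14 (1.01 and 1.59) and ATCG00800 (1.1 and 1.25). None of these 3 was called with TMM factors. Of the 78 plastid loci, 4 were higher and 10 lower with Al, with a median log2 ratio of -0.35 (-0.32 with the length trend subtracted). Of 39 mitochondrial loci 0 were higher and 8 lower, with a median of -0.59 (-0.52). Mitochondrial genes took 1.80% of reads in Col with Al and 1.14% in coi1-2 with Al, against 0.822% and 0.710% without Al. The libraries were selected for poly(A), and its part in organelle reads was not tested.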
